A study of Mus musculus with 16 samples.

Results

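The transcripts described here are those of 9 genes of the hepatic lipid droplet and of PPAR gamma: the nuclear receptor gene Pparg, the CIDE genes Cidea, Cidec and Cideb, the perilipin genes Plin2, Plin4 and Plin5, the acyltransferase gene Mogat1 and the lipase inhibitor gene G0s2. They were taken by annotated symbol from 19237 genes that had a probe set of their own, and each of the 9 had exactly 1 such probe set. The 9 were chosen by symbol with their knockout against control intensity differences in these same 16 livers already known, so that difference is described below with its error and no p-value, and the choice itself supports nothing. The arrays hold RNA of whole liver from 16 mice, 8 with the genotype LRH-1 hep +/+ (called control) and 8 with LRH-1 hep-/- (called knockout), 1 Affymetrix array per liver. LRH-1 is the nuclear receptor encoded by Nr5a2, and the labels write hep without spelling it out. Livers were taken at 7 am from mice of 17 to 19 weeks that were fed ad libitum. The sources used here give no strain, sex or driver of the deletion.

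Hepatocytes store triglyceride in droplets bounded by a phospholipid monolayer and a coat of proteins. Perilipins sit on that coat and limit or direct the access of lipases, and CIDE proteins gather where droplets touch and promote the transfer of lipid from smaller to larger ones. PPAR gamma is a ligand-activated receptor that binds DNA with RXR. It is the master regulator of fat cell formation, is low in normal liver, and is known to rise in steatotic mouse liver together with Cidec (also called Fsp27), Cidea, Plin4 and Mogat1.

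All values are log2 of the deposited probe-set intensity, so a difference of 1 is a doubling of the measured signal, and levels of different probe sets are not comparable with each other. In whole tissue, fewer cells of a type and less RNA per cell cannot be told apart. The Nr5a2 probe set read 8.66 ± 0.13 (SD, n = 8) among controls. Among knockouts it read 7.78 ± 0.37 (SD, n = 8), without overlap, and its position relative to the deleted part of the gene is not known here. The 8 hepatocyte markers, Alb and Hnf4a among them, gave 0 calls between genotypes. With 8.7% of all genes called, 0 of 8 tells little. Alb differed by -0.002 ± 0.05 (SE) and Hnf4a by -0.159 ± 0.063. Some arrays also carried RNA of tissue outside the liver lobule. Controls 5 and 8 and knockout 1 read high for the fat cell transcripts Adipoq and Retn, and control 4 and knockout 5 for Des, which encodes the muscle filament protein desmin. Results are therefore given with and without the 3 adipose arrays, since fat cells express Pparg, Cidec, Cidea and Plin4 themselves.

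Of the 9 genes, 6 had higher intensity in knockout livers at a Benjamini-Hochberg adjusted p under 0.05 in limma, namely Pparg, Cidea, Cidec, Plin2, Plin4 and Mogat1, and 0 had lower intensity. Over all 19237 genes 8.7% were called, 5.49% higher and 3.2% lower, but the 9 were picked for this contrast and their count is not a result. The 3 that were not called were Cideb, Plin5 and G0s2. Genotypes did not overlap in any liver for Cidec, Plin4 and Mogat1, which is 3 of 9 genes, beside 1.69% of all genes without overlap and higher in knockout and 1.2% without overlap and lower. The median difference over the 9 was 0.82, and over all genes 0.0019.

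**Figure D1:**
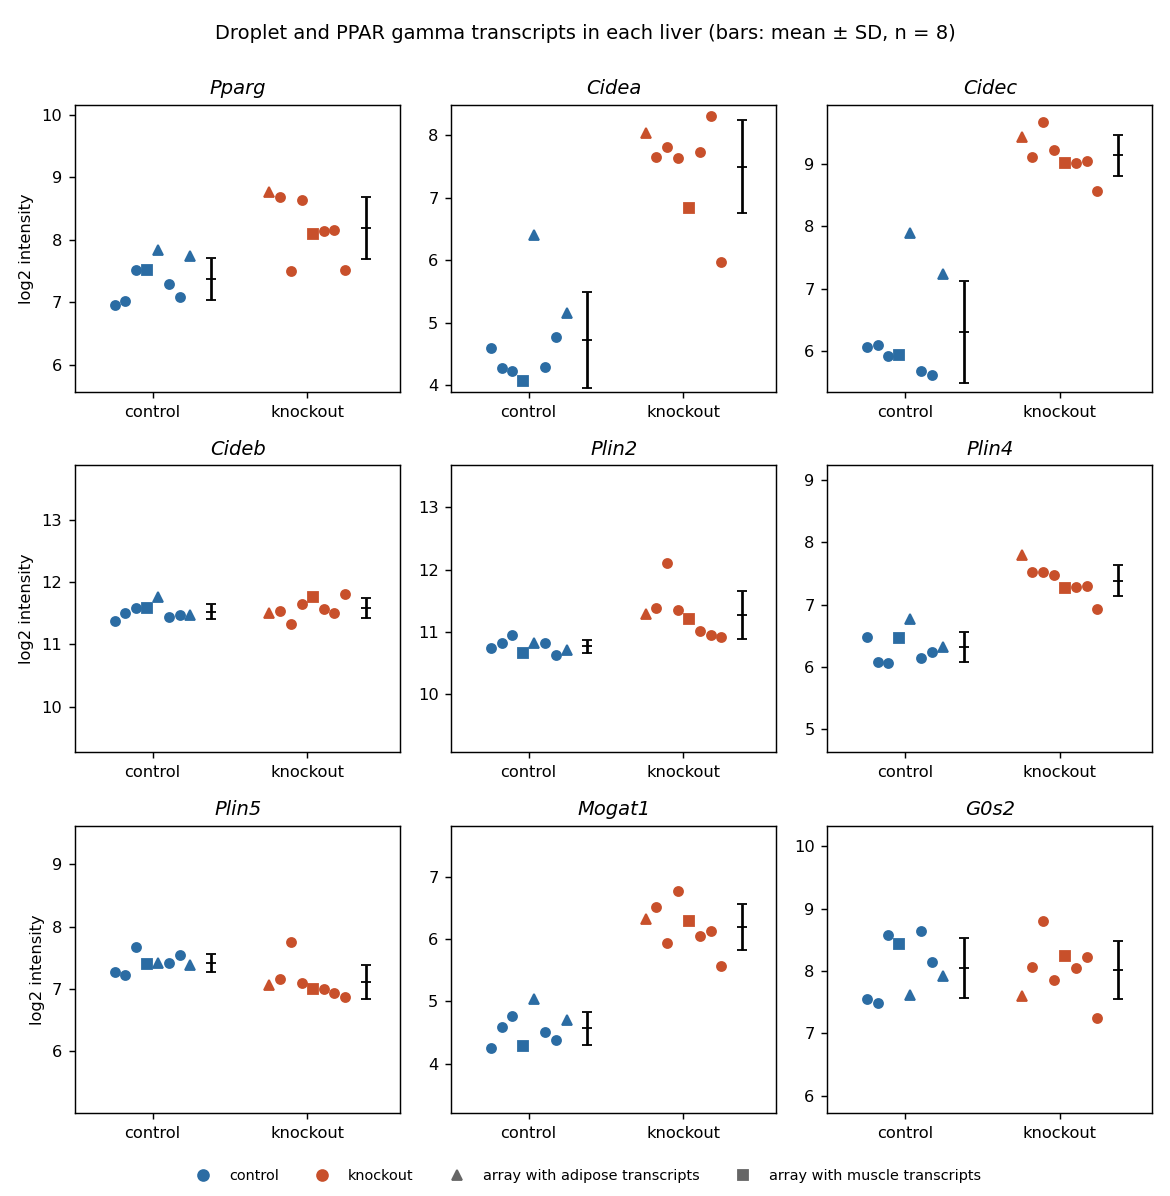
Log2 intensity of each of the 9 transcripts (vertical axis, the same span of log2 units in every panel) in each liver, with controls in blue and knockouts in orange. Triangles are the 3 arrays with adipose transcripts, squares the 2 with muscle transcripts, and bars the mean ± SD of the 8 livers. Cidec, Plin4 and Mogat1 show no overlap between genotypes, while Cideb and G0s2 differ by less than their SE.

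Promoter sequences of 1 start each of the 3 genes whose genotypes did not overlap, and of 1 start of Pparg, are shown because the text turns on these transcripts. Each is the 250 bases before an annotated start in the RefSeq table of build GRCm38.p6, 5′ to 3′ on the gene's strand. The Cidec stretch lies at chr6:113435761-113436010 on the minus strand, that of Mogat1 at chr1:78510810-78511059 on the plus strand, that of Plin4 at chr17:56109783-56110032 on the minus strand and that of Pparg at chr6:115362099-115362348 on the plus strand. Capitals mark TATAAA or AGGTCA on either strand. Cidec and Pparg have other annotated starts that are not printed. The Pparg stretch printed holds both TATAAA and AGGTCA, while the one at chr6:115421816-115422065 holds neither.
Cidec: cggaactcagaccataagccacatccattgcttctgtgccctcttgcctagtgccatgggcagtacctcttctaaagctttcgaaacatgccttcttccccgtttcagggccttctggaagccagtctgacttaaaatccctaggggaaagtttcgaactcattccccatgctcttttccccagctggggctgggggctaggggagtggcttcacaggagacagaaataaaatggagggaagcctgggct
Mogat1: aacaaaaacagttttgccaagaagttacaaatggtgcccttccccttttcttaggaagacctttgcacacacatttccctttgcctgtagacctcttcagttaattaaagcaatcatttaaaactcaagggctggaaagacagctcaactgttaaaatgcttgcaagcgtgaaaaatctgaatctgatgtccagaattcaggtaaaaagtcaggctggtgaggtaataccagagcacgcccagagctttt
Plin4: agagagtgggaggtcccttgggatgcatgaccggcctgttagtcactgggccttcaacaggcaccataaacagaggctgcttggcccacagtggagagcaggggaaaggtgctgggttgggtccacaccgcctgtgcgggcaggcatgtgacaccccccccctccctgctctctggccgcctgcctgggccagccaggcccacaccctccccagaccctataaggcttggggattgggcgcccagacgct
Pparg: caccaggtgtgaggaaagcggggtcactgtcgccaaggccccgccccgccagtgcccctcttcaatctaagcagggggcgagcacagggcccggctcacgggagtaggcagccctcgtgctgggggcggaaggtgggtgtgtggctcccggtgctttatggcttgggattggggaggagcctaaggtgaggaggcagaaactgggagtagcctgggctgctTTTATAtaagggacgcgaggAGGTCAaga

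RefSeq windows were matched for 8 of the 9 genes, 12 windows in all, of 250 bases before and 50 after a start. Neither the direct repeat read by PPAR with RXR, which is AGGTCA followed by itself with 1 base between, nor its looser form, AGGNCA followed by itself with 1 base between, was found on either strand in any of the 12 windows, against 0.0396% and 0.381% of all 32851 windows. The LRH-1 element CAAGGTCA and its looser form CAAGGNCA were likewise found in 0 of the 12, against 1.56% and 6.71% of all windows. Elements this rare would often be absent from 12 windows of any genes, so these counts of 0 do not set these genes apart. TATAAA was found in 2 windows, of Pparg and Cideb, against 13.6% of all. The single half-site AGGTCA, which is contained in the direct repeat and in CAAGGTCA and was added after those searches, was found in 5 windows of Plin2, Plin5 and Pparg, against 16.3% of all. In the Pparg stretch printed above, TATAAA lies on the opposite strand with its first printed base at position -29 from the start, and AGGTCA begins at -9. These are descriptions of letters in these windows, which are shorter than the regions that control these genes.

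Pparg, the receptor of the group, was higher in most knockout livers. Controls spanned 6.95 to 7.84 with a median of 7.40, and knockouts 7.50 to 8.77 with a median of 8.15. The highest control was control 5 and the highest knockout was knockout 1, both adipose arrays. The difference was 0.82 ± 0.18 (SE, n = 8 and 8), or 1.76-fold, and 6 of 8 knockouts stood above every control. The 2 that did not were knockout 3, at 7.50, and knockout 8, at 7.51. Without the 3 adipose arrays the difference was 0.87 ± 0.18, with controls at 7.52 or less and knockouts at 7.50 or more.

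Cidec, whose product enlarges droplets at their contact sites in fat and fatty liver, had the largest measured difference of the 9, with Cidea within its SE. Controls spanned 5.61 to 7.89 with a median of 6.00, and knockouts 8.57 to 9.67 with a median of 9.08. Every knockout stood above every control. The difference was 2.83 ± 0.26 (SE, n = 8 and 8), or 7.12-fold. The 2 highest controls were the adipose arrays, control 5 at 7.89 and control 8 at 7.23, while the other 6 controls lay between 5.61 and 6.10. Without the adipose arrays the difference was 3.21 ± 0.14, or 9.24-fold.

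Cidea, a CIDE protein best known from brown fat, gave a difference of similar size with more spread. Apart from control 5, its control levels were below the median of all probe sets on each array. A fold change from such dim levels can be compressed. Controls spanned 4.06 to 6.41 with a median of 4.45, and knockouts 5.97 to 8.32 with a median of 7.70. The ranges met only through control 5, an adipose array at 6.41, and knockout 8, at 5.97. The difference was 2.78 ± 0.32 (SE, n = 8 and 8), or 6.85-fold, and 7 of 8 knockouts stood above every control. Without the adipose arrays the controls reached 4.77 at most, the ranges no longer met, and the difference was 3.05 ± 0.28, or 8.31-fold.

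Cideb, the CIDE protein of normal hepatocytes with a role in the lipidation of secreted lipoproteins, differed by less than its SE. Controls spanned 11.37 to 11.77 and knockouts 11.32 to 11.81, so the ranges overlapped almost fully. The difference was 0.06 ± 0.07 (SE, n = 8 and 8). Without the adipose arrays it was 0.10 ± 0.08, which is above its SE. The SD among knockouts was 0.16 for Cideb, 0.33 for Cidec and 0.75 for Cidea.

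Control 5 and knockout 1 also read high for Ucp1, the uncoupling protein of brown fat, at 7.50 and 7.68 against 4.56 or less in every other array. The summed intensity of 10 adipocyte markers, on the log2 scale and without Car3, which liver itself expresses strongly, was 8.37 to 8.85 in the 6 other controls and 8.51 to 8.93 in the 7 other knockouts. It was 10.53 in control 5, 9.48 in control 8 and 10.28 in knockout 1. Of these 10 markers 0 were called between genotypes, beside 8.7% of all genes. That fit holds the adipose arrays, which widen the SE (0.48 for Adipoq), so the count does not show equal fat content. In the 7 knockouts without adipose transcripts Adipoq lay at 3.52 or less, and Cidec in the same livers at 8.57 or more. Within the controls, the adipose arrays stood above the median of the 5 livers with neither stray tissue by 1.98 and 1.32 in Cidec and by 2.12 and 0.87 in Cidea. In knockout 1 the same comparison with 6 other knockouts gave 0.35 in Cidec and 0.34 in Cidea.

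**Figure D2:**
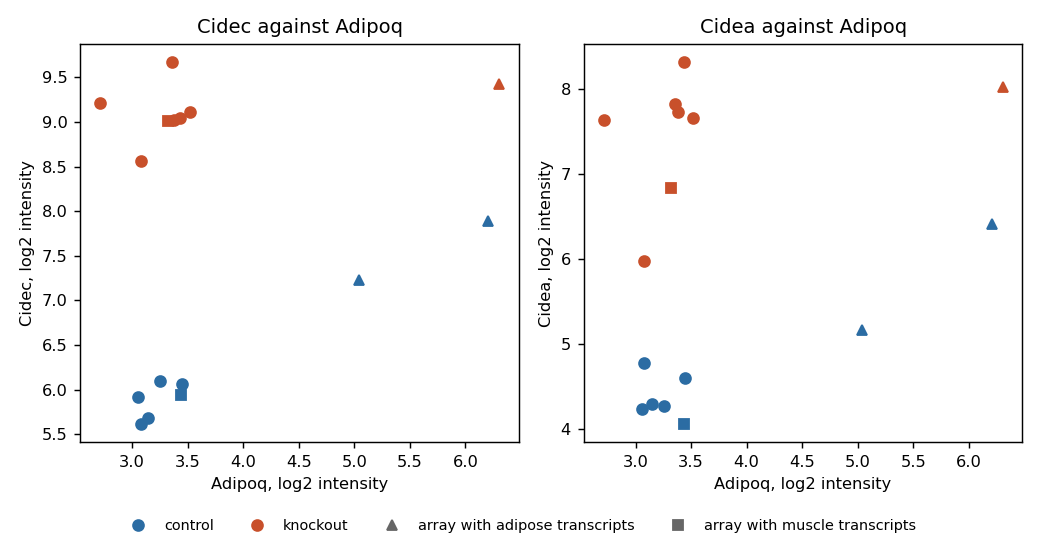
Log2 intensity of Cidec (left) and Cidea (right) against that of the fat cell transcript Adipoq in each of the 16 livers, with genotype by colour and stray tissue by symbol. Among arrays with Adipoq at 3.52 or less, all knockouts lie at 8.57 or more in Cidec and all controls at 6.10 or less.

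Plin4, a perilipin with a long repeated segment that is abundant in fat cells, was higher in all 8 knockouts than in any control. Controls spanned 6.07 to 6.78 with a median of 6.28, and knockouts 6.93 to 7.79 with a median of 7.38. The difference was 1.07 ± 0.11 (SE, n = 8 and 8), or 2.09-fold. It was 1.08 ± 0.10 without the adipose arrays.

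Plin2, the main perilipin of hepatocyte droplets, whose protein is degraded when not bound to a droplet, differed less. Controls spanned 10.63 to 10.94 with a median of 10.78, and knockouts 10.91 to 12.11 with a median of 11.25. The ranges met by a narrow margin, between control 3 and knockout 8, and 7 of 8 knockouts stood above every control. The difference was 0.51 ± 0.12 (SE, n = 8 and 8), or 1.42-fold. Knockout 3 at 12.11 was far above the next knockout at 11.38, and without it the difference was 0.39 ± 0.08. Without the adipose arrays the difference was again 0.51, with an SE of 0.15, and Plin2 was then not among the called genes.

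Plin5, a perilipin of oxidative tissues that links droplets to mitochondria, pointed the other way. Controls spanned 7.22 to 7.68 with a median of 7.41, and knockouts 6.87 to 7.75 with a median of 7.04. Only knockout 3, the highest liver of all at 7.75, stood above the control median, and the other 7 knockouts lay at 7.16 or less, below every control. The difference was -0.30 ± 0.10 (SE, n = 8 and 8) with all livers and -0.40 ± 0.07 without knockout 3. Without the adipose arrays it was -0.30 ± 0.12. Plin5 was not called with all livers and was called lower without knockout 3.

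Mogat1, which adds an acyl chain to monoacylglycerol on the way to triglyceride, was higher in every knockout. Controls spanned 4.26 to 5.04 with a median of 4.55, and knockouts 5.56 to 6.76 with a median of 6.20. The difference was 1.63 ± 0.14 (SE, n = 8 and 8), or 3.08-fold, and 1.71 ± 0.15 without the adipose arrays. The control levels were below the median of all probe sets on each array, and a fold change of a dim probe set can be compressed.

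G0s2 encodes an inhibitor of adipose triglyceride lipase. Its difference was smaller than its SE, with controls at 7.50 to 8.64 and knockouts at 7.24 to 8.81. The difference was -0.04 ± 0.20 (SE, n = 8 and 8), and its sign turned without knockout 8, at 0.07 ± 0.19. Without the adipose arrays it was -0.07 ± 0.23. Its SD was 0.47 in both genotypes.

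**Figure D3:**
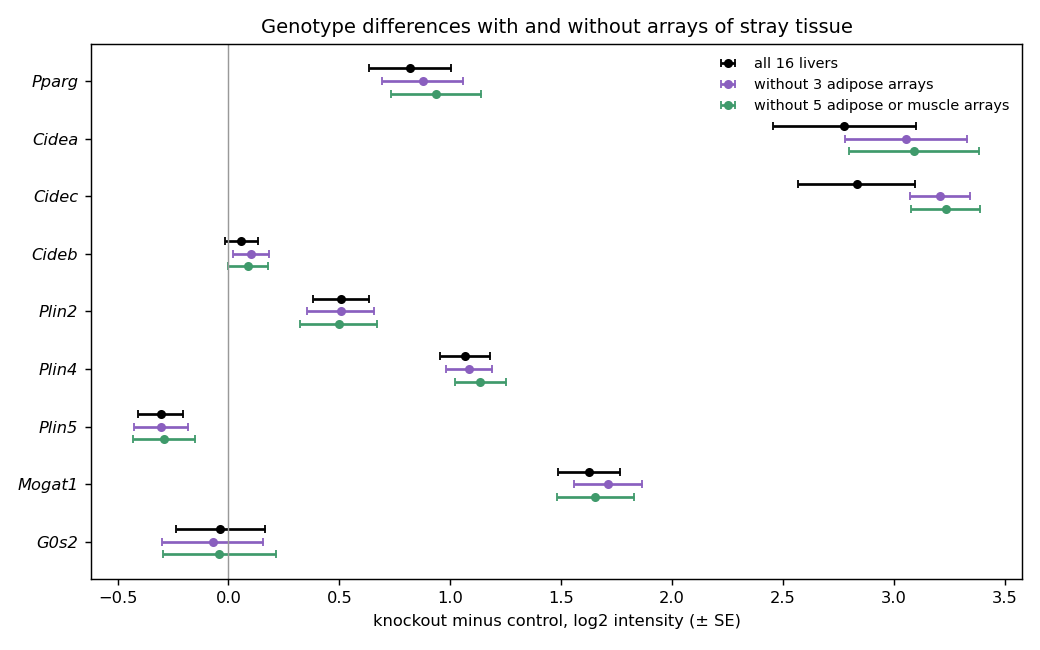
Knockout minus control difference in log2 intensity ± SE (horizontal axis) for the 9 genes with all 16 livers, without the 3 adipose arrays and without the 5 arrays of either stray tissue. Cidec goes from 2.83 to 3.21 and 3.23, Cidea from 2.78 to 3.05 and 3.09, and Cideb and G0s2 stay near 0.

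The knockout livers were not alike. Knockout 8 was the lowest knockout for 7 of the 9 genes (Cidea, Cidec, Plin2, Plin4, Plin5, Mogat1 and G0s2) and the highest for Cideb. It also had the highest Nr5a2 of the knockouts, at 8.25. Knockouts 4 and 5 came near it in Nr5a2, at 8.15 and 8.06. Knockout 5 was the next lowest after knockout 8 for Cidea, Cidec and Plin4, at 6.835, 9.007 and 7.271. Knockout 4 was the highest knockout for Mogat1, at 6.761. Without knockout 8 the number of genes with no overlap between genotypes was 5 in place of 3, while over all genes the share higher without overlap was 2.3% in place of 1.69%. Knockout 3 was the highest knockout for Cidec, Plin2, Plin5 and G0s2 and the lowest for Pparg and Cideb. Among controls, control 5 was the highest for 6 of the 9 genes (Pparg, Cidea, Cidec, Cideb, Plin4 and Mogat1).

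The spread of livers within a genotype was not used to choose the genes, so it was tested. All 45 pairs among the 9 genes and Nr5a2 were correlated within controls and within knockouts, 90 relations in all, with exact permutation tests over the 40320 pairings of 8 livers, 2-sided. After Benjamini-Hochberg adjustment 1 pair passed among knockouts and 0 among controls, where 9 and 6 had an unadjusted exact p under 0.05. The pair was Plin2 and Plin5 among the knockouts, with Pearson's r of 0.97 (n = 8, exact p = 7.44e-05, adjusted p = 0.00670) and Spearman's rho of 0.98 (exact p = 0.000397, adjusted p = 0.0357). Without knockouts 3 and 8, the 2 livers farthest from the median of Plin2, r was 0.89 (n = 6, exact p = 0.0153). Without knockout 3 alone r was 0.92 (n = 7, exact p = 0.00238). Among controls the same pair had an r of 0.26 and a rho of 0.26 (n = 8, exact p = 0.542 and 0.536, adjusted p = 0.774 and 0.743), and the difference between the genotypes in this relation was not tested.

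By Pearson's r, Pparg and Mogat1 had the next smallest p among knockouts, with r of 0.85 (n = 8, exact p = 0.00593) and rho of 0.81 (exact p = 0.0218), and failed the correction (adjusted p = 0.172 and 0.279). By Spearman's rho the next were Cidea with Cideb (rho = -0.88) and Cidec with Plin4 (rho = 0.88), each with n = 8, an exact p of 0.00724 and an adjusted p of 0.217. For Pparg and Mogat1, r without knockouts 3 and 8 was 0.69 (n = 6, exact p = 0.174). In controls Pparg and Mogat1 had an r of 0.69 and a rho of 0.64 (n = 8, exact p = 0.0583 and 0.0962). Cidea and Cidec in controls had an r of 0.89 and a rho of 0.43 (n = 8, exact p = 0.0140 and 0.299, adjusted p = 0.172 and 0.674). The r rested on the adipose arrays, since without controls 5 and 8 it was -0.37 (n = 6, exact p = 0.460). None of the 9 genes correlated with Nr5a2 past the correction in either genotype. By Pearson's r the smallest exact p was 0.0723, for Cidea among knockouts (n = 8, r = -0.65, adjusted p = 0.253). By Spearman's rho it was 0.0279, for Plin5 among controls (n = 8, rho = 0.79, exact test, adjusted p = 0.279).

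**Figure D4:**
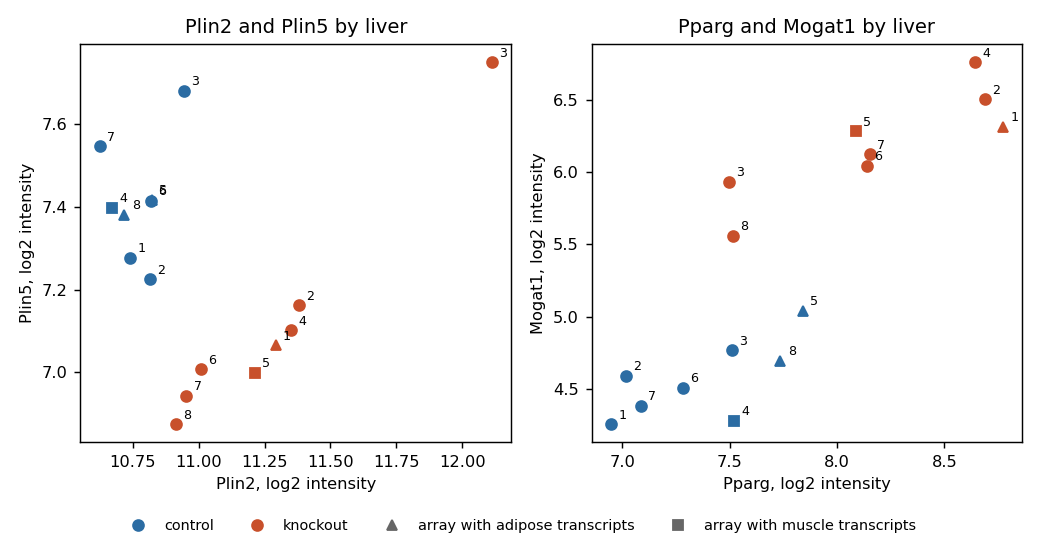
Log2 intensity of Plin5 against Plin2 (left) and of Mogat1 against Pparg (right) in each liver, numbered by replicate, with genotype by colour and stray tissue by symbol. Knockouts lie along a line in Plin2 and Plin5, with knockout 3 at its upper end (r of 0.97), while r among controls is 0.26.

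The transcripts whose pattern was most like that of Pparg, by Pearson's r of deviations from the genotype mean over 16 livers, were Gpd1 (0.90), which makes glycerol-3-phosphate, Snapc5 (0.88), Scamp5 (0.87), Man2a2 (0.86) and Capn1 (0.86). For Cidec they were Lipe (0.82), the hormone-sensitive lipase, Retn (0.80), Fabp4 (0.78), H4c14 (0.77) and Cidea (0.77). Lipe, Retn and Fabp4 are on the adipocyte list. Without the adipose arrays, over 13 livers, 0 of the 5 were shared in either case. The 5 nearest to Pparg were then Abca8b (0.96), Kat2b (0.92), Angel2 (0.92), Iqsec1 (0.91) and Pdhb (0.90). For Cidec they were Cpeb4 (0.89), Mttp (0.87), which loads triglyceride onto secreted lipoproteins, Cda (0.85), Enc1 (0.84) and Fga (0.84). Each set is the top of a screen of all genes at or above the median intensity, over few livers. In such a screen a high r can arise by chance, and none of these was tested.

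Other genes of the pathway were tested from 6 lists with 87 distinct measured genes, of which 11 rose and 12 fell in limma at an adjusted p under 0.05 over all genes. The shares over all 19237 genes, 5.49% higher and 3.2% lower, are the background of each list count below; 1 of 16 or 1 of 12 is near them. Among 19 genes reported to respond to PPAR gamma, 6 rose and 0 fell, with a median difference of 0.49 beside 0.0019 over all genes. The list was set with results of these livers known and is no independent evidence of a direction. Slc27a1, a fatty acid transport protein, rose by 1.12 ± 0.14 (SE, limma adjusted p = 7.92e-06). S100a10 rose by 0.72 ± 0.09 (limma adjusted p = 1.29e-05), Pdk4, which restrains pyruvate oxidation, by 1.29 ± 0.16 (1.68e-05) and Cd36, a fatty acid uptake protein, by 1.41 ± 0.20 (4.95e-05). The other 2 were Anxa2 (1.02 ± 0.16) and Lpl (1.76 ± 0.34), the lipoprotein lipase, both named after their values were seen. Lpl was highest among controls in control 4, a muscle array, at 8.39. Fabp4, a classical PPAR gamma target of fat cells, differed by 0.14 ± 0.46 with all livers (limma adjusted p = 0.961). That fit holds the adipose arrays, at 8.671 in control 5, 7.079 in control 8 and 8.756 in knockout 1. Fabp4 levels were 5.154 to 6.211 in the 6 controls without adipose transcripts and 5.317 to 6.285 in the 7 such knockouts.

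Of 16 other genes of the droplet coat and its biogenesis, 1 rose and 2 fell (median 0.01). Pcyt1a, the rate-limiting enzyme of phosphatidylcholine synthesis, changed by -0.58 ± 0.08 (limma adjusted p = 3.52e-05) and Hsd17b13, a hepatocyte droplet protein, by -0.35 ± 0.09 (0.0142). Lpcat2 rose by 0.29 ± 0.08 (limma adjusted p = 0.0243). That call was lost without control 3, 6 or 7 or knockout 1 or 7, with differences of 0.25 to 0.28 and adjusted p of 0.0504 to 0.0576, and without the 3 adipose arrays (0.26 ± 0.09, adjusted p = 0.110). The perilipins outside the 9 genes did not pass. Plin1, the perilipin of fat cells, differed by -0.23 ± 0.30 (limma adjusted p = 0.848), and Plin3, given after its values were seen, by 0.02 ± 0.08 (0.966).

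Of 10 genes of droplet lipolysis, 3 rose and 1 fell (median 0.08). Ces1g, a carboxylesterase, rose by 0.58 ± 0.08 (limma adjusted p = 3.24e-05), the monoglyceride lipase Mgll by 0.64 ± 0.13 (0.00262) and Pnpla2, the adipose triglyceride lipase that G0s2 inhibits, by 0.48 ± 0.12 (0.0122). Lipa, the lysosomal acid lipase, changed by -0.27 ± 0.08 (limma adjusted p = 0.0329). That call was lost without control 2, 3, 4, 6 or 7 or knockout 6 or 7, with differences of -0.27 to -0.25 and adjusted p of 0.0503 to 0.0742. It was also lost after centring arrays on their medians (0.0582).

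Of 12 genes of triglyceride acylation, 1 rose and 2 fell (median 0.06). Gpat3, a glycerol-3-phosphate acyltransferase, rose by 1.04 ± 0.10 (limma adjusted p = 5.55e-07). Agpat2, which makes phosphatidate, changed by -1.05 ± 0.10 (1.67e-07) and Dgat2, which completes triglyceride, by -0.34 ± 0.07 (0.00207).

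Of 20 PPAR receptors, partners and coregulators other than Pparg, 0 rose and 3 fell (median -0.05). Cebpa, a partner of PPAR gamma in fat cells, changed by -0.72 ± 0.10 (limma adjusted p = 2.49e-05), Ppard by -0.56 ± 0.13 (0.00706) and Ppara, the receptor of hepatic fatty acid oxidation, by -0.45 ± 0.11 (0.0116). Without the 3 adipose arrays Ppara differed by the same amount and did not pass (adjusted p = 0.0582). Of 12 genes of de novo lipogenesis 0 rose and 4 fell (median -0.38): Mlxipl, which encodes ChREBP, by -0.70 ± 0.09 (limma adjusted p = 2.31e-05), the pyruvate kinase Pklr by -1.08 ± 0.14 (2.47e-05), the elongase Elovl6 by -0.51 ± 0.14 (0.0280) and the fatty acid synthase Fasn by -0.62 ± 0.19 (0.0444). Elovl6 lost its call without control 1, 3, 5, 7 or 8 or knockout 1, 3, 6 or 7 (differences of -0.50 to -0.44, adjusted p of 0.0523 to 0.0633). Fasn lost it without control 1, 2, 3, 5, 7 or 8 or knockout 2, 3, 5, 6 or 7 (differences of -0.64 to -0.48, adjusted p of 0.0578 to 0.0930). With all 16 livers Fasn also lost it under quantile normalization (-0.60, adjusted p = 0.0543) and under trend with robust variances (-0.62, adjusted p = 0.0860). Without the 3 adipose arrays neither passed, with Elovl6 at -0.44 ± 0.17 (adjusted p = 0.176) and Fasn at -0.62 ± 0.21 (adjusted p = 0.114), in a fit with fewer arrays.

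**Figure D5:**
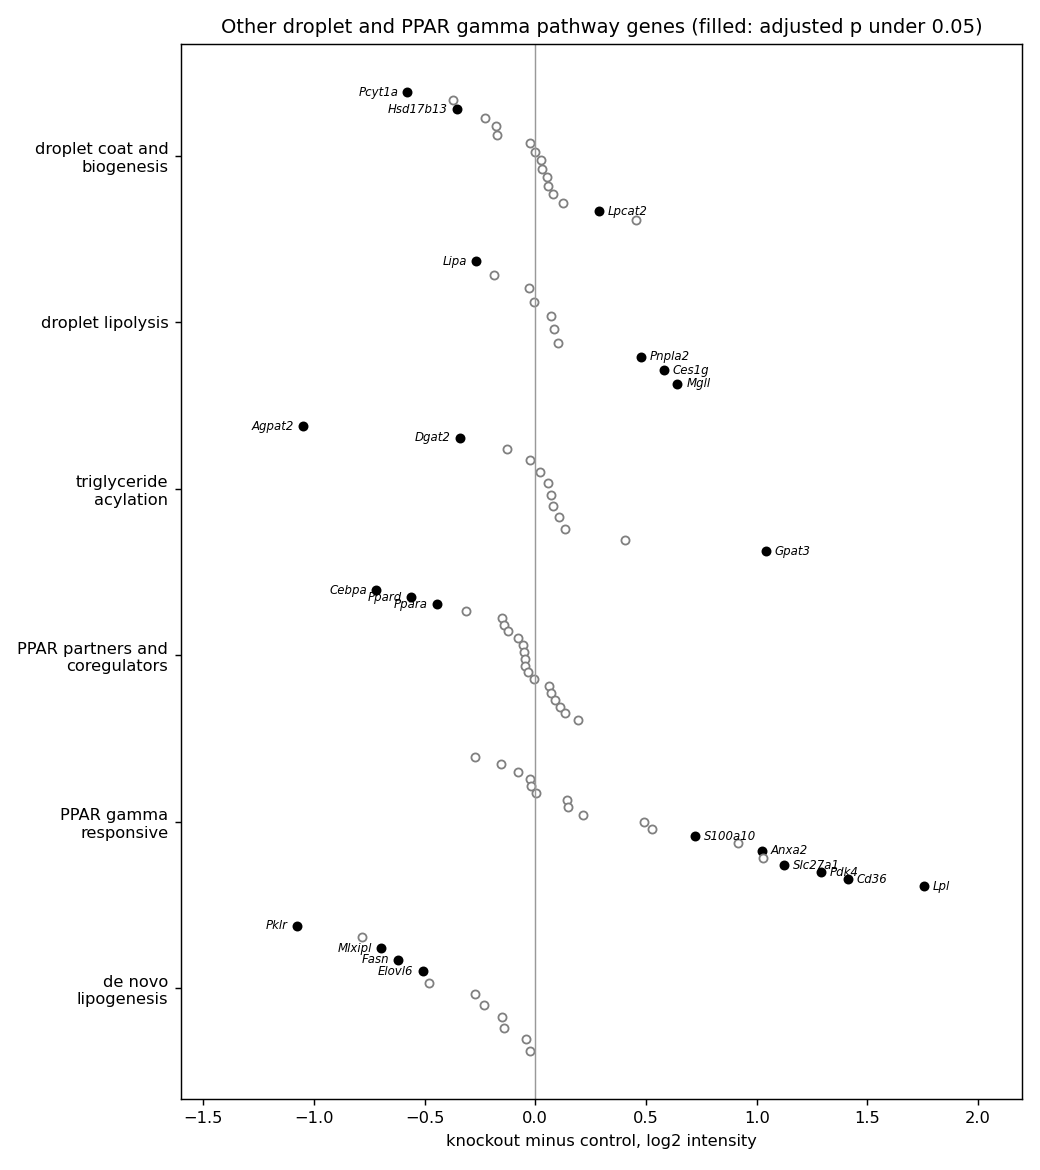
Knockout minus control difference in log2 intensity (horizontal axis) of each measured gene in the 6 pathway lists, with genes past a limma adjusted p of 0.05 filled and named. The PPAR gamma responsive list holds 6 filled points, all to the right of 0, and the lipogenesis list 4, all to the left.

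With Car3, the adipocyte list had 11 measured markers, of which 0 were called higher and 1 lower (Car3), and of 6 brown adipocyte markers 1 was lower (Elovl3). Elovl3 read 11.77 to 12.12 in the 6 controls without adipose transcripts, where Ucp1 read 4.04 or less, so its call is no measure of brown fat. Of 8 Kupffer cell and macrophage markers 0 were called, with a summed level of 10.42 to 11.02 in controls and 9.99 to 11.10 in knockouts. Of 8 stellate cell markers 2 were higher (Dcn and Reln) and 1 lower (Lrat), with a summed level of 11.11 to 11.60 in controls and 11.30 to 11.78 in knockouts. Of 5 cholangiocyte markers 1 was higher (Epcam), and of 4 mesothelial markers 0 were called. Over all genes 8.7% were called, so counts of 0 or 1 in lists this short tell little. The part of these cells in the differences above was not tested.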

How the data were processed

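Per the labels' protocols, 100 ng of total liver RNA per array was amplified and labelled with a whole-transcript kit. The authors deposited 1 linear intensity per probe set and array. The submitters' processing notes name Affymetrix Expression Console, with no version, and the sources used here state neither summary method nor normalization. All deposited intensities were above 0, with array medians of 38.89 to 43.47. The number of arrays limits the precision.

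Log2 intensities were used with no pseudocount, filter or further normalization. Of 35556 probe sets, 21456 were paired with 1 gene. The probe set with the highest mean was kept per gene, which left 19237 genes named through RefSeq gene identifiers. No pair of arrays held the same values. The difference between genotypes was fitted per gene in limma 3.58.1 under R 4.3.3 (lmFit, then eBayes), 2-sided, with Benjamini-Hochberg adjustment over all genes and a threshold of 0.05. The steps were checked on simulated data. p-values measure the spread between the livers, which the labels call biological replicates.

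An array was said to carry adipose transcripts where Adipoq or Retn was over 1 log2 unit above its genotype's median, and muscle transcripts likewise for Des. The 9 genes, the pathway lists and the marker lists were chosen with earlier results of these data known. Genes without a single-gene probe set were not analysed here. Named are the 9 genes, Nr5a2, up to 4 called genes per list and direction by smallest p (or the list's most intense gene where none was called), the adipocyte markers and the 5 genes most like Pparg and Cidec among genes at or above the median intensity. Alternatives were a block on replicate number, quantile normalization, median centring over all probe sets, filters at the 25th and 50th percentiles, the mean of probe sets, trend with robust variances, array weights, all probe sets, and leaving out each array or the adipose arrays. Those without muscle arrays, without knockout 3 in correlations and centring on the median of genes were added after seeing the data. Over all genes same-numbered livers did not deviate together, with correlations of -0.262 to 0.235, and the main fit treats the numbers as names. Such correlations cannot settle this for single genes. Control 3 and knockout 3 were each the highest of their genotype for Plin2 and Plin5, and a link between same-numbered livers in single genes was not tested.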

Additional observations from a re-analysis of the deposited data

Results flagged for a closer look

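In 6 of 66 groups of 8 livers looked at, 1 liver stood apart, with a gap to its neighbour that took more than 0.526 of the group's range, where chance gives about 1 group in 20. Control 5 stood above the other controls in Cidea (6.41 against 5.16 or less, 0.532 of the range) and in Pnpla2 (8.48 against 7.98 or less, 0.534), and it is an array with adipose transcripts. Knockout 3 stood above the other knockouts in Plin2 (12.11 against 11.38 or less, 0.61) and in Plin5 (7.75 against 7.16 or less, 0.672). Control 4, an array with muscle transcripts, stood below the other controls in Gpat3 (5.14 against 5.52 or more, 0.653). Knockout 8 stood below the other knockouts in Lipa (9.96 against 10.37 or more, 0.671).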

How the results depend on the processing

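All 251 values of the 9 genes' differences over 28 alternatives moved by less than the gene's residual SD in the fit to all 16 livers (0.62 for Cidec, which moved by up to 0.40), and none of the called ones changed sign, while G0s2, not called, spanned -0.15 to 0.07 when 1 array was left out. Of 23 named pathway genes 16 kept their call throughout, and 0 changed direction. The 9 genes held 6 calls higher in each fit that left out 1 array. They held 5 without the 3 adipose arrays and without the 5 adipose or muscle arrays. They also held 5 with the 50th percentile filter, which removes Mogat1. Over all genes 1057 were called higher with all livers, and 878 to 1154 when 1 array was left out. Without the adipose arrays 713 were called higher, without the adipose or muscle arrays 586, and with the 50th percentile filter 962. The 9 were picked for this contrast, so a steady count among them is no support for it. Calls lower among the 9 went from 0 to 1 with the replicate block, quantile normalization, the 50th percentile filter and array weights. They spanned 0 to 1 when 1 array was left out. Over all genes calls lower went from 616 to 582, 817, 653 and 865 in those fits, in that order. They spanned 527 to 697 when 1 array was left out. Genes of the 9 with no overlap spanned 3 to 5 when 1 array was left out, beside 1.71% to 2.3% of all genes. Over all genes 1673 calls became 893 without the adipose or muscle arrays, with 586 higher and 307 lower in place of 1057 and 616, in a fit with fewer samples. The higher share of calls was 63.2%, and 53.4% when arrays were centred on the median of genes. The droplet coat list had 2 higher and 4 lower with array weights, 0 higher without the adipose arrays, and 0 higher and 1 lower without the adipose or muscle arrays. It spanned 0 to 2 higher when 1 array was left out. The lipolysis list had 0 lower with median centring, without muscle arrays and without adipose or muscle arrays, 2 with array weights, and 0 to 2 when 1 array was left out. The PPAR partner list had 6 lower with array weights and 1 without the adipose or muscle arrays. The lipogenesis list had 2 lower without the adipose arrays or without both tissues, and 2 to 4 when 1 array was left out. Of the 5 genes most like Pparg and like Cidec 0 were shared without the adipose arrays. Without the adipose or muscle arrays Ppard (-0.49, adjusted p = 0.117, from -0.56) and Hsd17b13 (-0.42, adjusted p = 0.0590, from -0.35) also lost their calls. The cause of these shifts was not tested. With the replicate block 1524 genes were called, and it changed no call among the 9 genes or the named genes apart from Plin5. No detection calls were used, so the precision of dim probe sets, such as Mogat1 and Cidea in controls, is not known.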
